A study of Homo sapiens with 12 samples.

Results

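The comparison was made between HaCaT and TIGK, both after hydrogen peroxide, gene by gene. Its members were the 16245 genes whose raw counts averaged 10 or more over the 6 H2O2 libraries, of the 58735 genes in the count table of the series. HaCaT is a line of human skin keratinocytes that became immortal spontaneously, and TIGK consists of gingival keratinocytes immortalized with telomerase. Both lines were kept in the same keratinocyte growth medium (DermaLife K). RNA was taken from 3 samples of each line after 5 mM H2O2 for 3 h and from 3 untreated samples of each line, which gave 12 libraries of polyadenylated RNA in 4 groups. Each tissue was represented by 1 established line, so a difference between skin and gingiva cannot be told apart from a difference between these 2 lines. The labels did not say that the samples of a group were separate cultures, so p-values measured the spread between these samples, which may be technical.

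Keratinocytes build the stratified epithelium of skin and gums and keep a record of their place in the body in homeobox transcription factors. When cells meet an oxidant, growth factor receptors and stress kinases are switched on, and within minutes to hours the immediate early genes (FOS, JUN, EGR and their relatives) are transcribed without new protein being made. Phosphatases of the DUSP family and EGF receptor inhibitors such as ERRFI1 are transcribed soon after and switch the same kinases off again. Oxidants also engage NRF2, which drives genes of glutathione and quinone metabolism, and the heat shock factor, which drives chaperones.

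The 6 H2O2 libraries held 30426401 to 44252343 counts, and the 6 untreated libraries 33658365 to 49034244. Mitochondrial transcripts took 3.30% to 3.51% of the counts in HaCaT after H2O2 and 1.39% to 1.5% in TIGK after H2O2, against 6.10% to 6.26% and 3.33% to 3.45% in the untreated lines. None of the 14 keratinocyte markers was at or under 3 counts in all libraries of a group, and their summed level in the H2O2 libraries was 1937190 to 2089410 normalized counts in HaCaT and 2072250 to 2184320 in TIGK. Of the 12 fibroblast markers, 4 were at or under 3 counts in every HaCaT H2O2 library and 5 in every TIGK H2O2 library, with COL1A2 at 0 in all of them. The summed level of that list was 1862 to 2045 in HaCaT and 3488 to 3574 in TIGK, most of it COL5A1 and COL1A1. DCN was found in TIGK (238 ± 24.7, SD, n = 3) and POSTN in HaCaT (318 ± 14.9). FAP was 186, 216 and 280 in TIGK and 16.2, 11.3 and 41.0 in HaCaT. By the test given below, 1 of the 6 tested fibroblast markers was higher in HaCaT and 5 in TIGK after H2O2 (28.5% and 32.3% of all genes). The 7 endothelial markers summed to 10.5 to 42.2 in HaCaT and 15.2 to 38.1 in TIGK, the 7 melanocyte markers to 201 to 224 and 585 to 709 (nearly all of it MITF), and the 10 leukocyte markers to 9.05 to 21.0 and 255 to 299. The leukocyte sum of TIGK came from CSF1R (169 ± 24.0) and CD14 (102 ± 8.70), while CD3D was at 0 in all 6 H2O2 libraries. The part of these genes in the differences below was not tested. In bulk RNA, fewer cells of a type and less RNA per cell cannot be told apart.

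After H2O2, HaCaT and TIGK differed in most genes. Of the 16245 genes, 4637 were higher in HaCaT (28.5% of those tested) and 5255 were higher in TIGK (32.3%) at an adjusted p under 0.01 by the quasi-likelihood test of edgeR, adjusted by Benjamini-Hochberg over every gene tested. This limit was used throughout. In the untreated libraries, fitted in the same model, HaCaT was higher for 4913 genes (30.2%) and TIGK for 4985 (30.7%). The line difference of a gene is given below as log2 of HaCaT over TIGK, so that positive values are higher in HaCaT. Among called genes its median size was 0.88 after H2O2 and 0.88 untreated, and over all genes its median was -0.030 after H2O2. Which line had more genes was not stable, since a filter on the mean over all 12 libraries gave 5011 higher in HaCaT and 4954 in TIGK and a median of 0.018. By a limit of 1 on the log2 scale beside the adjusted p, 1765 genes after H2O2 favoured HaCaT and 2672 favoured TIGK.

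Most line differences were present in both states. Across the tested genes the line differences after H2O2 and untreated correlated with r = 0.95 (Pearson) and rho = 0.89 (Spearman), given as a description, since genes are not independent replicates. Of the 9892 genes called after H2O2, 8308 were called untreated in the same direction, 63 in the opposite direction, and 1521 were called after H2O2 alone. A further 1527 genes were called only in the untreated libraries. A gene on 1 side of the limit in each state has not been shown to differ between the states, so the change of the line difference was tested itself, as an interaction of line and H2O2. It passed the limit for 893 genes, 328 toward HaCaT (2.02% of those tested) and 565 toward TIGK (3.48%). With that test, 179 line differences appeared with H2O2 (1.1% of the genes tested), 192 vanished (1.18%) and 63 reversed (0.388%). Another 202 widened (1.24%) and 257 narrowed (1.58%) while keeping their direction. So 11.8% of the genes called only after H2O2 and 12.6% of those called only untreated had a tested change.

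**Figure D1:**
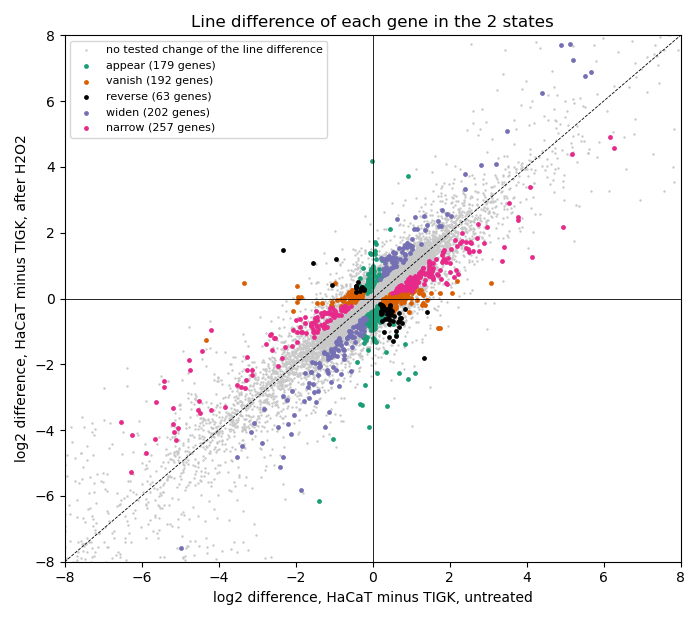
Each point is a gene, with its line difference (log2, HaCaT minus TIGK) in untreated libraries on the x axis and after H2O2 on the y axis. Grey points had no tested change of the line difference, and coloured points are the 179 genes whose difference appeared, the 192 that vanished, the 63 that reversed, the 202 that widened and the 257 that narrowed. The dashed line marks equal differences in both states, most grey points lie along it, and genes beyond 8 on either axis are not shown.

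The split of the changes between the lines depended on how libraries were scaled, although no change named below turned its fitted direction under another scaling, filter or test. With DESeq2's size factors in place of edgeR's TMM factors the split was 404 toward HaCaT and 448 toward TIGK, with a filter on the mean over all 12 libraries 496 and 385, with a mean count of at least 50 it was 440 and 453, and with DESeq2 as the test 721 and 693. The median change over all genes was -0.018 on the log2 scale with TMM and 0.042 with the filter over all libraries, so no direction was read from the split. The number toward HaCaT rose to 610 without HaCaT H2O2 replicate 1 and to 623 without HaCaT H2O2 replicate 3. It fell to 218 without HaCaT H2O2 replicate 2, to 205 and 216 without HaCaT control replicates 1 and 2, and to 194 and 196 without TIGK H2O2 replicates 2 and 3. The number toward TIGK fell to 371 without HaCaT control replicate 1, 346 without TIGK H2O2 replicate 2 and 372 without TIGK control replicate 2. Without HaCaT control replicate 1 the vanishing, widening and narrowing genes were 114, 122 and 162, and without HaCaT control replicate 2 the widening 131. Without HaCaT H2O2 replicate 2 the narrowing genes were 166, without TIGK H2O2 replicate 1 they were 169, and without TIGK control replicate 1 the vanishing were 115. Without TIGK H2O2 replicate 3 the vanishing, widening and narrowing were 125, 129 and 148, and without TIGK control replicate 2 they were 124, 124 and 170. Without TIGK H2O2 replicate 2 the appearing, vanishing, widening and narrowing genes were 109, 119, 125 and 138. In every fit that left out 1 library, 72 of the 179 appearing, 65 of the 192 vanishing, 36 of the 63 reversing, 96 of the 202 widening and 104 of the 257 narrowing genes kept their class.

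Which line had moved differed from gene to gene. The response of HaCaT to H2O2 was called upward for 14.4% of all genes tested and downward for 17.1%, and that of TIGK upward for 11% and downward for 12.4%. Among the 120 differences that appeared toward TIGK, the response was called in HaCaT alone for 57, in TIGK alone for 21 and in both lines for 40. Among the 59 that appeared toward HaCaT it was called in HaCaT alone for 16, in TIGK alone for 33 and in both for 10. For the 63 reversed genes the response was called in HaCaT alone for 20, in TIGK alone for 12 and in both lines for 31, and in 14 of those 31 the lines moved in opposite directions. The response and the change of the line difference share libraries, so these counts describe the classes and test nothing.

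Among genes with at least 100 normalized counts, the largest difference to appear was that of CTGF (CCN2), a secreted matrix protein and a target of the YAP coactivators. Its normalized counts, that is counts scaled to 1 common library size, were 722, 699 and 739 in HaCaT after H2O2 and 11119.6, 10216 and 10874 in TIGK after H2O2. Untreated, they were 295, 321 and 362 in HaCaT and 365, 319 and 365 in TIGK. The treated lines lay far apart and the untreated lines overlapped. The line difference was -3.90 (SE 0.074, adjusted p = 2.7e-18) after H2O2 and -0.10 (SE 0.083, adjusted p = 0.27) untreated, and its change was -3.79 (SE 0.11, adjusted p = 8.4e-14). The gene lies on chromosome 6, 131948176 to 131951373 (GRCh38, minus strand). CYR61 (CCN1), its close relative and also a YAP target, was higher in TIGK in both states and its difference widened from -1.60 to -2.23 (change -0.62, SE 0.096, adjusted p = 0.00028), with 5481, 5056 and 4983 normalized counts in HaCaT and 24854, 23335 and 24401 in TIGK after H2O2. Of the 18 YAP targets tested, 9 were higher in HaCaT and 6 in TIGK after H2O2 (11 and 3 untreated), with medians of 0.14 and 0.52. Over all genes, 28.5% and 32.3% were called so after H2O2. The change passed for 7 of the 18, 1 toward HaCaT and 6 toward TIGK (5.56% and 33.3%, beside 2.02% and 3.48% of all genes). It passed for 4 without HaCaT control replicate 1 or 2 or TIGK H2O2 replicate 2 or 3.

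DUSP5, a nuclear phosphatase of ERK, stood at 3044, 3340.1 and 3418 in HaCaT and 30764, 31341 and 29572 in TIGK after H2O2, against 2992, 3157 and 3045 and 4506, 3396 and 3209 untreated. TIGK rose by 3.04 on the log2 scale, and the response of HaCaT was 0.093 (SE 0.090, adjusted p = 0.43). The line difference was -3.23 (SE 0.096, adjusted p = 9.2e-16) after H2O2 and -0.27 (SE 0.090, adjusted p = 0.011) untreated, and the change was -2.95 (SE 0.13, adjusted p = 6.4e-11). EDN1, which encodes the peptide endothelin 1, gave 375, 452 and 439.6 in HaCaT and 1584, 1542 and 1668 in TIGK after H2O2 and a change of -1.51 (SE 0.18, adjusted p = 2.5e-05). For both genes the untreated difference lay so close to the limit (adjusted p = 0.011 and 0.011) that with other scalings, DESeq2 or other filters it passed. So it did without HaCaT H2O2 replicate 1 or 3 and without TIGK control replicate 3 (for DUSP5 also without TIGK control replicate 2, for EDN1 also without HaCaT control replicate 3), with adjusted p from 0.00097 to 0.007. In those fits the gene widened instead.

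In other genes whose difference appeared, HaCaT fell. PRSS22, a serine protease of epithelia, was 39.0, 41.9 and 55.7 in HaCaT after H2O2 and 264, 337 and 325 untreated, while TIGK held 192, 275 and 187 and 372, 250.2 and 229.8. The lines overlapped untreated and not after H2O2, and the line difference was -2.25 (SE 0.23, adjusted p = 6.1e-08) after H2O2 with a change of -2.37 (SE 0.30, adjusted p = 4e-05). SEMA7A, a membrane-anchored semaphorin, fell in HaCaT and rose in TIGK, to 382, 447 and 359.7 and 1100.5, 1328 and 1262, and its change was -1.99 (SE 0.18, adjusted p = 8.1e-07). Without HaCaT control replicate 1 its untreated difference of 0.46 passed the limit (adjusted p = 0.0047) and the gene reversed instead. KRT15, a keratin of basal cells, was 1393, 1485 and 991 in HaCaT and 2703, 3398 and 3512 in TIGK after H2O2, with no overlap, while the untreated lines overlapped (3214, 2802 and 2238 and 2863, 2339.8 and 2539), and its change was -1.41 (SE 0.19, adjusted p = 0.0001). LUCAT1, a long noncoding RNA, was 16.2, 18.1 and 0 in HaCaT and 41.0, 71.9 and 49.2 in TIGK after H2O2 (change -3.36, SE 0.65, adjusted p = 0.0022). It lies within ADGRV1 on the opposite strand, whose reads cannot be told apart from its own unless strand was counted, and it reversed rather than appeared without HaCaT H2O2 replicate 3, where the untreated difference was 1.08 (adjusted p = 0.0011).

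Among genes with at least 100 normalized counts whose difference appeared toward HaCaT, 1.66 was the largest change, though over all genes that appeared the median size of the change was 0.63 in either direction. GAS1, a membrane protein that binds hedgehog, was 211, 283 and 218 in HaCaT and 51.6, 43.1 and 68.3 in TIGK after H2O2, against 161, 176 and 147 and 118, 123 and 114 untreated. HaCaT was higher in both states without overlap, but the untreated difference did not pass the limit. The line difference was 2.11 (SE 0.19, adjusted p = 1.4e-08) after H2O2, with a change of 1.66 (SE 0.27, adjusted p = 0.00042). SLC45A3, a sugar transporter, rose in HaCaT alone, to 370.4, 339.6 and 274 against 123, 119.8 and 119 in TIGK (line difference 1.44, SE 0.16, adjusted p = 2.6e-07, change 1.39, SE 0.24, adjusted p = 0.0007). RTN4R, a receptor of myelin proteins, rose in HaCaT and fell in TIGK, and stood at 995, 1303 and 1046 and 393, 436 and 473 (change 1.30, SE 0.15, adjusted p = 1.1e-05). CBARP, which regulates calcium channels, fell in TIGK, to 134, 139 and 188 against 349, 529.7 and 345 in HaCaT (change 1.36, SE 0.23, adjusted p = 0.00066), and overlaps STK11 on the other strand. ID2, an inhibitor of helix-loop-helix factors, and the pseudogene FAM45BP were also among the 6 largest, but each left the class in 7 of the 12 fits without 1 library, where the adjusted p of the change reached 0.027 and 0.037.

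Line differences vanished in both directions, 63 toward HaCaT and 129 toward TIGK. Among the 63, in which TIGK had been higher, the response to H2O2 was called in TIGK alone for 25, in HaCaT alone for 21, in both for 13 and in neither for 4. EGR1, a zinc finger immediate early factor, was 789, 1036 and 1115 in untreated HaCaT and 4175, 3406 and 3594 in untreated TIGK, and reached 62164, 64136 and 53499.7 in HaCaT and 60180.2, 51649 and 61148 in TIGK after H2O2. The untreated lines lay apart and the treated lines overlapped. The line difference went from -1.93 (SE 0.11, adjusted p = 1.5e-11) to 0.056 ± 0.20 (95% interval), a change of 1.99 (SE 0.15, adjusted p = 6.6e-08). ATF3, a stress-induced partner of JUN, went from 483, 461 and 470.2 and 1943, 1706 and 1533 to 5952, 4591 and 5271 and 5068, 4902 and 5333, with a line difference of -1.87 untreated and 0.047 ± 0.16 after H2O2 (change 1.92, SE 0.13, adjusted p = 1.4e-08). RASD1, a small RAS-like protein, had a mean of 8.16 ± 3.32 in untreated HaCaT and 86.1 ± 25.4 in untreated TIGK (SD, n = 3), and 195, 229 and 281 and 117, 195 and 191 after H2O2, where the ranges overlapped (change 3.81, SE 0.43, adjusted p = 1.1e-05). RNF222, a RING finger gene, rose in HaCaT from 22.5, 23.6 and 35.9 to 103, 136 and 142 beside 103, 115 and 156 in TIGK (change 1.92, SE 0.33, adjusted p = 0.00088). VGF, a neuropeptide precursor, rose in HaCaT and fell in TIGK, to 249, 215 and 231 and 301, 319 and 289.9, so its difference shrank from -2.07 to -0.39 (change 1.68, SE 0.21, adjusted p = 3.4e-05). Its treated libraries still did not overlap, with an adjusted p of 0.025. For ADPRHL1 the adjusted p of the change was 0.0088 and reached 0.038 among the 9 of 12 fits without 1 library in which it missed the limit.

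In the 129, HaCaT had been higher. PLK2, a polo-like kinase and p53 target, was 7072, 6713 and 7817 in untreated HaCaT and 2184, 2213 and 2028 in untreated TIGK, and 9906, 9737 and 10184 and 9636, 8574 and 8617 after H2O2. Both lines rose, TIGK to just under HaCaT, and the line difference fell from 1.75 (SE 0.066, adjusted p = 2.6e-14) to 0.15 ± 0.12 (change -1.60, SE 0.090, adjusted p = 2.9e-09). The treated libraries of PLK2 did not overlap (adjusted p = 0.036), and with the filter over all 12 libraries they passed the limit, so that the gene narrowed. BCL10, a signalling adaptor upstream of NF-kB, fell in HaCaT and rose in TIGK, and came to 1945, 1998 and 1878 and 2105, 2172 and 2111 from 2453, 2668 and 2605 and 1016, 1140.4 and 942 (change -1.45, SE 0.096, adjusted p = 1.4e-08). The treated libraries of BCL10 did not overlap, TIGK being higher, but that difference did not pass the limit. CGN, which encodes the tight junction protein cingulin, also fell in HaCaT and rose in TIGK. It went from 1117, 1045 and 1305 in HaCaT and 419, 368 and 507 in TIGK to 560.0, 559 and 538 and 578, 583 and 554, with overlapping treated libraries (change -1.47, SE 0.15, adjusted p = 4.1e-06). IL1RL1, the receptor of interleukin 33, fell in both lines, to 536, 675 and 664 in HaCaT and 561, 576 and 549 in TIGK (change -1.37, SE 0.13, adjusted p = 1e-06), and narrowed rather than vanished without HaCaT H2O2 replicate 1 (adjusted p after H2O2 = 0.0088). ITGB6, the beta subunit of an integrin that activates TGF-beta, went from 2621, 2599.6 and 2609.6 in HaCaT and 1156, 1158 and 1209 in TIGK to 1432, 1293 and 1418 and 1400.5, 1401 and 1449, where the ranges overlapped (change -1.19, SE 0.086, adjusted p = 4e-08). FOSL1, an AP-1 subunit, was 16766, 18869 and 17924 and 15939.9, 17613 and 16551 after H2O2 against 19152, 20179.7 and 21414 and 9550.1, 7859 and 6981 untreated (change -1.22, SE 0.12, adjusted p = 2e-06). For MAPK15 the adjusted p of the change was 0.005 and it missed the limit in 8 of the 12 fits without 1 library, up to 0.021.

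The upstream sequences of CTGF and EGR1 are shown because these 2 genes carry the largest difference that appeared and 1 of the largest that vanished. Each run is the 250 bases before the start of the gene in RefSeq (GRCh38.p14), written 5′ to 3′ on the strand of the gene. For CTGF it lies at chr6:131951373-131951622 on the minus strand, and capitals mark CATTCC, the core of the TEAD motif through which YAP acts, read on either strand and here as GGAATG. It holds 3 matches, and 11.9% of 27305 promoters of that length hold at least 1. For EGR1 it lies at chr5:138465229-138465478 on the plus strand, and capitals mark the CArG box, the motif of serum response factor. It holds 2 matches, and 1.14% of the promoters hold at least 1. A match is a string of letters and no measurement of binding.
CTGF (CCN2): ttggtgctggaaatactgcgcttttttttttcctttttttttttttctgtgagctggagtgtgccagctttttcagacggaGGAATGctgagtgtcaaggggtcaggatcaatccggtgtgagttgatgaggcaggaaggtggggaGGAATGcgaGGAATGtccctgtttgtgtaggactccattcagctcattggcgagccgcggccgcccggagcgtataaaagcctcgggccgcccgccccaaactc
EGR1: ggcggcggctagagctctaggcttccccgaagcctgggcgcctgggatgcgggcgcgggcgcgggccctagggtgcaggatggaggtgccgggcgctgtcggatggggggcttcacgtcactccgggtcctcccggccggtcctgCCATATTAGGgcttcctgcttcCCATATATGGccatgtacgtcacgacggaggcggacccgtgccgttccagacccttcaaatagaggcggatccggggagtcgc

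Of the 31 immediate early genes on the list, 22 had a RefSeq promoter among those searched, and 5 of these held CATTCC, 2 a CArG box and 1 the cyclic AMP response element TGACGTCA, which 1.77% of all promoters hold.

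Reversals toward HaCaT were led by GADD45G, a stress-induced growth arrest gene. Its normalized counts were 8.52, 16.8 and 5.99 in HaCaT and 44.0, 66.2 and 44.9 in TIGK untreated, and 145, 261 and 331 and 109, 74.7 and 81.0 after H2O2. TIGK was higher in every untreated library and HaCaT in every treated one, with no overlap in either state. The line difference turned from -2.33 (SE 0.40, adjusted p = 4.5e-05) to 1.49 (SE 0.29, adjusted p = 0.00014), a change of 3.82 (SE 0.50, adjusted p = 5e-05). FOS, the founding member of its AP-1 family, went from 248, 250.3 and 321 in HaCaT and 946, 739 and 728 in TIGK to 25787, 17723 and 16928 and 10364, 7973 and 10311. It rose in both lines, more in HaCaT, and the line difference turned from -1.56 (SE 0.17, adjusted p = 1.5e-07) to 1.08 (SE 0.14, adjusted p = 1e-06). CXCL1, a chemokine that draws neutrophils, rose in HaCaT to 637, 582 and 555 and fell in TIGK to 247, 241 and 287, from 363, 272 and 362 and 749, 644 and 532. Its line difference turned from -0.94 (SE 0.13, adjusted p = 4.7e-06) to 1.19 (SE 0.14, adjusted p = 3.3e-07). JUND, an AP-1 subunit, turned from -0.43 to 0.39 (change 0.83, SE 0.11, adjusted p = 5.3e-05), with 6710.0, 7417 and 6305 in HaCaT and 5294, 4837 and 5418 in TIGK after H2O2. NRARP, a Notch feedback gene, turned from -1.06 to 0.40 (change 1.46, SE 0.16, adjusted p = 4.8e-06). Its difference after H2O2 missed the limit without HaCaT H2O2 replicate 2 (adjusted p = 0.027) and without TIGK H2O2 replicate 2 (0.02) or 3 (0.015). FGFRL1 turned from -0.39 to 0.51 (change 0.90, SE 0.18, adjusted p = 0.0026) but left the class in 7 of the 12 fits without 1 library.

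The 48 reversals toward TIGK, beside 15 toward HaCaT, were led by EGR3, a relative of EGR1. EGR3 was 355, 338 and 310.5 in HaCaT and 140.1, 105 and 151 in TIGK untreated, and 462, 800.2 and 608 and 2040.4, 2389 and 2131 after H2O2. The lines did not overlap in either state, and the line difference turned from 1.34 (SE 0.17, adjusted p = 1.3e-06) to -1.81 (SE 0.14, adjusted p = 1.4e-09), a change of -3.15 (SE 0.22, adjusted p = 3.8e-08). KLF6, a zinc finger factor of the early response, held 10898, 9015 and 8480.2 in HaCaT after H2O2 while TIGK reached 23379.5, 22387 and 24281, from 10696, 10384 and 11025 and 8097, 7201 and 7005 untreated. Its line difference turned from 0.53 (SE 0.077, adjusted p = 6.6e-06) to -1.30 (SE 0.078, adjusted p = 2.6e-11). JUN, the AP-1 subunit, rose in both lines to 16338, 14078 and 12983 in HaCaT and 23188, 21087 and 25258 in TIGK, from 6184, 6349.8 and 6860.3 and 4809, 4265 and 4261. Its line difference turned from 0.54 (SE 0.082, adjusted p = 9.5e-06) to -0.68 (SE 0.081, adjusted p = 4.3e-07). IER3, an early gene that guards against cell death, turned from 0.70 to -0.43 (change -1.13, SE 0.12, adjusted p = 4.1e-06). ENC1, an actin-binding protein, turned from 1.42 to -0.40 (change -1.81, SE 0.11, adjusted p = 8.5e-09), HaCaT falling to 2173, 1676 and 1707 and TIGK reaching 2537, 2425 and 2358. ZC3H12A, a ribonuclease that degrades cytokine messages, was 716, 876 and 777 and 1760.3, 1748 and 1811 after H2O2 and turned from 0.43 to -1.17 (change -1.59, SE 0.12, adjusted p = 5.6e-08). RNF39, a RING finger gene in the HLA region, turned from 0.61 to -1.15 (change -1.76, SE 0.16, adjusted p = 9.5e-07). ENC1 overlaps a neighbouring gene in the annotation, and RNF39 overlaps PPP1R11 on the other strand. ZNF750, a factor of late keratinocyte differentiation that overlaps TBCD, turned from 0.59 to -0.99 (change -1.58, SE 0.23, adjusted p = 0.00015), and its untreated difference missed the limit without HaCaT control replicate 2 (adjusted p = 0.029) or TIGK control replicate 1 (0.014).

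**Figure D2:**
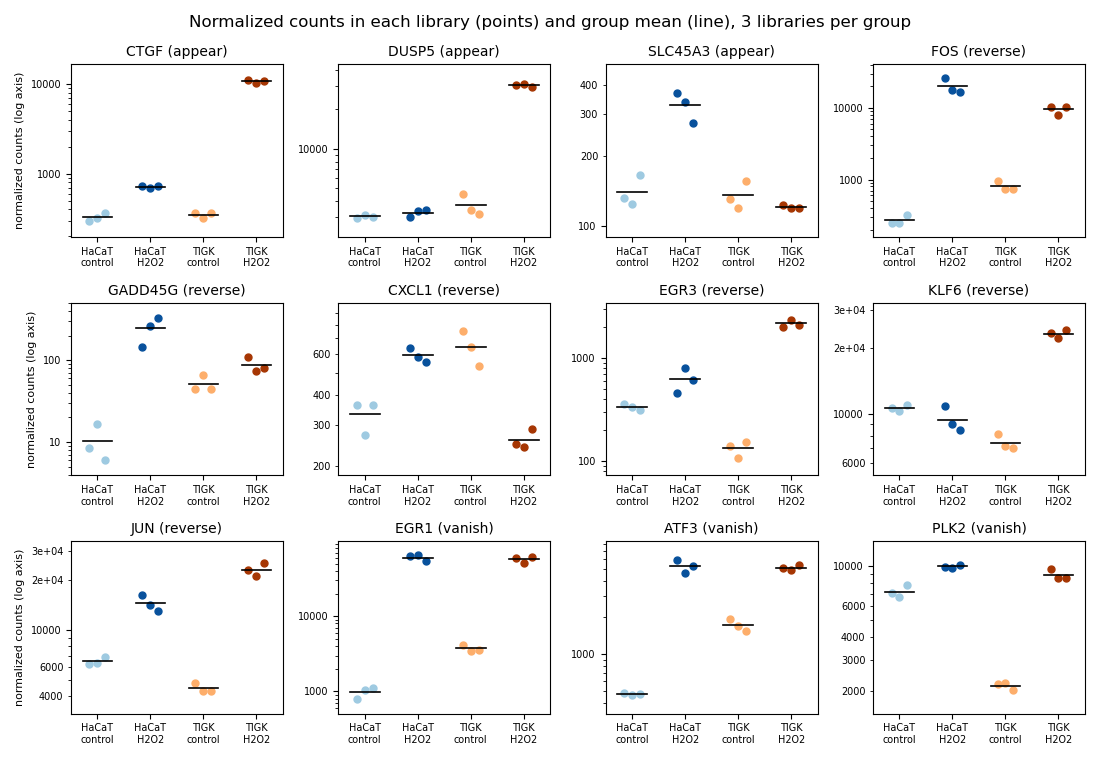
Normalized counts (log axis, a scale of its own for each gene) of 12 genes in each of the 12 libraries, with 3 points and a mean line per group. CTGF, DUSP5 and SLC45A3 stand far apart only after H2O2, FOS, GADD45G and CXCL1 turn from higher in TIGK to higher in HaCaT, EGR3, KLF6 and JUN turn the other way, and EGR1, ATF3 and PLK2 come close together after H2O2.

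Among differences that kept their direction, the largest fitted change among those that widened toward TIGK was that of ZNF439, a zinc finger gene. It was 6.97, 8.98 and 7.99 in untreated HaCaT and 0 in all 3 HaCaT H2O2 libraries, while TIGK held 134, 129 and 146 untreated and 138, 127 and 141 after H2O2. With a floor of 3 counts per library TIGK was at least 41.5-fold higher after H2O2. The fitted size of the change of ZNF439 depends on the small count that the fit adds, so its rank is not certain. IL36RN, the interleukin 36 receptor antagonist, widened from -1.24 to -3.90 (change -2.66, SE 0.41, adjusted p = 0.00029), with 15.2, 12.5 and 7.36 in HaCaT and 162, 167 and 195 in TIGK. PRDM1, the transcriptional repressor BLIMP1, which overlaps ATG5, widened from -1.13 to -3.45 (change -2.33, SE 0.31, adjusted p = 7e-05), HaCaT falling to 55.2, 49.8 and 27.3 and TIGK rising to 431, 465 and 550.4. Toward HaCaT, UGT8, an enzyme of galactolipid synthesis, widened from 5.12 to 7.73 (change 2.61, SE 0.39, adjusted p = 0.0002), with 964, 926 and 1017 in HaCaT and 5.86, 1.92 and 5.56 in TIGK. RPSAP52, a pseudogene transcript antisense to HMGA2, widened from 4.40 to 6.25 (change 1.86, SE 0.27, adjusted p = 0.00017). The changes of ELF3, ARHGAP40, KRT81 and MARCHF4, also among the 4 largest of their direction, missed the limit in 6, 10, 7 and 7 of the 12 fits without 1 library.

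The narrowed differences were led by ARC, an early gene best known from synapses, which rose in HaCaT from 16.3, 3.37 and 8.98 to 94.2, 169 and 164 beside 292, 285 and 246 in TIGK (line difference -4.19 untreated, -0.94 after H2O2, change 3.25, SE 0.41, adjusted p = 3.4e-05). Without HaCaT H2O2 replicate 1 the difference after H2O2 missed the limit (adjusted p = 0.01) and that of ARC vanished. In the other direction ARL14, a small GTPase, narrowed from 4.95 to 2.18 (change -2.77, SE 0.26, adjusted p = 9.9e-07), HaCaT falling to 470.1, 414 and 585 and TIGK rising to 108, 92.9 and 122. EDAR, the ectodysplasin receptor of skin appendages, narrowed from 3.35 to 1.13 (change -2.21, SE 0.40, adjusted p = 0.0012). SYT14 narrowed from 3.42 to 1.55 (change -1.87, SE 0.27, adjusted p = 0.00015). PLAU, the urokinase plasminogen activator, narrowed from 1.93 to 0.45 with 4903, 5012 and 4903 in HaCaT and 3514, 3587 and 3708 in TIGK after H2O2 (change -1.48, SE 0.094, adjusted p = 8.5e-09), and overlaps C10orf55. SOX9, a stem cell factor of epidermis and hair, narrowed from 2.22 to 0.73 (change -1.49, SE 0.12, adjusted p = 2.2e-07). LEF1 missed the limit without HaCaT control replicate 1 (adjusted p of the change 0.016) or 3 (0.01), HEPHL1 without TIGK H2O2 replicate 1 (0.016) or TIGK control replicate 1 (0.01), and SNAI1 and TMEM121 in 5 and 8 of the 12 fits.

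The immediate early genes were the list with the most members in these classes. All 31 were tested, and after H2O2 HaCaT was higher for 6 and TIGK for 20, against 8 and 17 untreated. Their median line difference was -0.88 after H2O2 and -0.43 untreated, beside -0.030 and 0.0028 over all genes. The change of the line difference passed for 20 of the 31, 7 toward HaCaT and 13 toward TIGK, where 2.02% and 3.48% of all genes did so. Of these 20, 4 appeared, 4 vanished, 6 reversed, 3 widened and 3 narrowed. Besides those above, the cell cycle factor MYC was 20524, 20329 and 19369 in HaCaT and 37958, 38856 and 36362 in TIGK after H2O2 while the untreated lines overlapped, so that a difference of -0.91 (SE 0.051, adjusted p = 1.1e-11) appeared (change -0.96, SE 0.072, adjusted p = 5.8e-08). The orphan receptor NR4A3 appeared at -1.09 (change -1.71, SE 0.32, adjusted p = 0.0015), and JUNB widened from -0.84 to -1.29 (change -0.45, SE 0.088, adjusted p = 0.0025). At the ends of the list, FOSB was 13416, 10001 and 9122 in HaCaT and 3047, 2833 and 3194 in TIGK, a line difference of 1.84 (SE 0.11, adjusted p = 1.7e-11), and GDF15, a stress hormone, was 1.08, 2.26 and 0 in HaCaT and 73.8, 109 and 99.3 in TIGK.

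The MAP kinase phosphatases and the feedback genes of the EGF receptor did not share 1 direction after H2O2. Of 25 tested, 9 were higher in HaCaT and 11 in TIGK after H2O2 (9 and 10 untreated), with medians of 0.043 after H2O2 and -0.20 untreated. Of all genes, 28.5% and 32.3% were called so after H2O2. The change passed for 1 toward HaCaT and 8 toward TIGK (4.0% and 32.0%, beside 2.02% and 3.48% of all genes). Without TIGK H2O2 replicate 2 it passed for 6 in all, 1 toward HaCaT and 5 toward TIGK. ERRFI1, an inhibitor of the EGF receptor, was 4127, 3933 and 4151 in HaCaT and 32692, 35285 and 32053 in TIGK after H2O2, and widened from -1.65 to -3.03 (change -1.38, SE 0.099, adjusted p = 3.9e-08). DUSP1, a phosphatase of stress kinases, stayed higher in TIGK, with 9514, 9230.3 and 8877 in HaCaT and 48018, 42439.7 and 47166 in TIGK, and narrowed from -3.14 to -2.32 (change 0.82, SE 0.14, adjusted p = 0.00088). DUSP6, a phosphatase of ERK, vanished from 0.70 to 0.043 (change -0.66, SE 0.10, adjusted p = 0.00025), and DUSP4 and DUSP10 narrowed to 0.86 and 0.69. The highest difference was that of the ligand HBEGF (1.72, SE 0.089, adjusted p = 3.4e-12) and the lowest that of the ligand BTC (2.17, 2.26 and 4.21 in HaCaT and 39.8, 51.7 and 33.4 in TIGK).

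Most chaperones rose in each line, and the number whose line difference changed depended on which libraries were fitted. Of 33 heat shock proteins and cochaperones, 4 were higher in HaCaT and 18 in TIGK after H2O2, against 4 and 19 untreated, with medians of -0.38 and -0.44. The shares over all genes after H2O2 were 28.5% and 32.3%. The response was called upward for 23 of them in HaCaT and 25 in TIGK (14.4% and 11% of all genes). The change of the line difference passed for 1 toward HaCaT and 2 toward TIGK (3.03% and 6.06%, beside 2.02% and 3.48% of all genes). This count did not hold. It fell to 0 without HaCaT control replicate 2, any of the 3 TIGK H2O2 replicates or TIGK control replicate 1. Without HaCaT H2O2 replicate 2, HaCaT control replicate 1 or TIGK control replicate 2 it fell to 1. Without HaCaT H2O2 replicate 1 or TIGK control replicate 3 it was 3, all toward HaCaT. HSPB8, a small heat shock protein, had the lowest difference, -5.29 (SE 0.24, adjusted p = 5.9e-13), with 17.3, 27.2 and 23.1 in HaCaT and 864, 871 and 926 in TIGK. The highest fitted value was that of HSPA1L, 0.85 (SE 0.43, adjusted p = 0.084), which did not pass the limit. HSPA1A, with 12659.7, 16576 and 14082 and 14464, 14101 and 14394, had a line difference of 0.012 ± 0.19 (95% interval), but shares reads with the near-identical HSPA1B, so the split between the 2 copies is uncertain.

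Redox genes differed between the lines in both states. The change of their line difference is read here beside the 2.02% (toward HaCaT) and 3.48% (toward TIGK) of all genes that changed. The line differences are read beside the 28.5% of all genes higher in HaCaT and 32.3% higher in TIGK after H2O2 (30.2% and 30.7% untreated). Of 34 NRF2 targets, 15 were higher in HaCaT and 13 in TIGK after H2O2, the same numbers as untreated, with a median of 0.085, and the change of the line difference passed for 0 of 34 by edgeR and by DESeq2, with 10 at an unadjusted p under 0.05 (1 of 34 passed without HaCaT H2O2 replicate 3). GPX2, a glutathione peroxidase of epithelia, was 1417, 1522 and 1512 in HaCaT and 85.6, 65.2 and 41.3 in TIGK after H2O2, a line difference of 4.58 (SE 0.19, adjusted p = 1.1e-13). HMOX1, heme oxygenase 1, was 14.1, 9.05 and 8.41 and 239, 202 and 207, a line difference of -4.34 (SE 0.27, adjusted p = 4.8e-11). On the antioxidant list of the study 45 genes were tested, 15 higher in HaCaT and 12 in TIGK after H2O2 and 14 and 16 untreated, with medians of 0.11 and -0.15, and the change passed for 0 by edgeR and 1 by DESeq2, with 11 at an unadjusted p under 0.05 by edgeR. Without HaCaT H2O2 replicate 1 it passed for 5, all toward HaCaT. Per its methods, the study took this list and that of pro-oxidants from a gene database and trimmed them by earlier literature. GPX7 was at 0 in the 3 HaCaT H2O2 libraries and 180.5, 177 and 181 in TIGK, at least 55.0-fold higher by the floor of 3 counts. Of 29 genes of glycolysis and the pentose phosphate route, 10 were higher in HaCaT and 9 in TIGK, and the change passed for 0 by edgeR and 2 by DESeq2, with 5 at an unadjusted p under 0.05 by edgeR (3, 2 and 1 passed without HaCaT H2O2 replicate 1, HaCaT H2O2 replicate 3 and TIGK control replicate 3). PFKP, a phosphofructokinase, was highest (1.82, SE 0.063, adjusted p = 8e-15) and ENO2 lowest (-2.35, SE 0.15, adjusted p = 1.1e-10). On the pro-oxidant list of the study 55 were tested, 29 higher in HaCaT and 11 in TIGK, and the change passed for 6, all toward HaCaT (10.9%, beside 2.02% of all genes), 5 of them genes of the mitochondrial chromosome and the sixth GFER, a sulfhydryl oxidase, whose change missed the limit in 8 of the 12 fits without 1 library. A count of 0 does not show that the differences were equal in both states.

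The largest line differences were nearly all-or-none and were there before H2O2. BST2, an interferon-induced antiviral protein, was 0 in all 3 HaCaT H2O2 libraries and 10173, 10159 and 10695 in TIGK, so that TIGK was at least 3166-fold higher by a floor of 3 counts per library. FKBP10, a collagen chaperone, and UCHL1, a ubiquitin hydrolase of neurons, were likewise 0 in HaCaT and 6930.0 ± 208 and 4731 ± 141 in TIGK (SD, n = 3), at least 2121-fold and 1448-fold higher. LAMC3, a laminin chain, HS6ST2, which sulfates heparan, and G0S2, a lipase inhibitor, were 0 in HaCaT as well and at least 764-fold, 731-fold and 584-fold higher in TIGK. In the other direction ONECUT3, a homeobox factor, was 707, 766 and 541 in HaCaT and 0 in the 3 TIGK H2O2 libraries, at least 229.6-fold higher in HaCaT. ST6GALNAC5, a sialyltransferase, PDE1C, a phosphodiesterase, and OLFM1, olfactomedin 1, were also 0 in TIGK after H2O2 and at least 221-fold, 145-fold and 114-fold higher in HaCaT. TFCP2, a widely expressed transcription factor, was 2201, 2223 and 2106 in HaCaT and 0, 0 and 0.79 in TIGK after H2O2, and NLRP2, an inflammasome gene, was 4686, 4673 and 4952 and 4.69, 0 and 0.

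More genes of this kind were found in TIGK than in HaCaT. Leaving out the Y chromosome, 160 genes with a mean of at least 100 normalized counts in TIGK after H2O2 had at most 3 counts in every HaCaT H2O2 library, and 121 of them also in every untreated HaCaT library. The other way round there were 26 genes, 17 of them also at most at 3 counts in untreated TIGK. Of the 160 and the 26, 145 and 19 were protein coding. With a floor of 10 counts the numbers were 281 and 54. No test was made of these counts, since genes are not replicates.

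Genes that record position in the body differed between the lines in both states. Of 39 HOX genes, 25 were tested, and 18 were higher in HaCaT and 1 in TIGK after H2O2 (19 and 3 untreated), beside 28.5% and 32.3% of all genes after H2O2, with a median of 1.69 after H2O2 and 1.81 untreated. HOXA9 was 1689, 1795 and 1709 in HaCaT and 10.5, 17.2 and 18.3 in TIGK after H2O2, a line difference of 6.76 (SE 0.15, adjusted p = 2e-17), and overlaps HOXA10-AS. It had widened from 5.52 (change 1.24, SE 0.26, adjusted p = 0.004), which missed the limit in 4 of the 12 fits without 1 library. HOXC12 was 573, 699 and 613 and 3.52, 5.75 and 15.9 and HOXD10 309.8, 292 and 382 and 27.0, 17.2 and 25.4. HOXB6 was the 1 member called higher in TIGK, with 0, 11.3 and 0 in HaCaT and 17.6, 24.0 and 26.2 in TIGK. HOXD9, which overlaps HOXD-AS2, lost its difference with H2O2, HaCaT falling from 289, 295 and 252 to 130.0, 112 and 126 beside 118, 132 and 170.0 in TIGK (change -1.47, SE 0.23, adjusted p = 0.00033). In total 3 HOX genes changed, HOXC13 being the other, 2 toward HaCaT and 1 toward TIGK (8.0% and 4.0%, beside 2.02% and 3.48% of all genes). Only 1 HOX gene changed when replicate 1 or 2 of either TIGK group was left out. Of 32 factors of oral and craniofacial development 24 were tested, 5 were higher in HaCaT and 16 in TIGK, and the median was -1.55 after H2O2 and -1.55 untreated. The change passed for 5 of the 24, all toward HaCaT (20.8%, beside 2.02% of all genes), among them DLX1, from -0.54 to 0.27, and DLX2, from -1.61 to -0.79. The 5 became 1 without HaCaT control replicate 3 or TIGK control replicate 1, 2 without TIGK H2O2 replicate 1 or 3, and 3 without HaCaT H2O2 replicate 2, TIGK H2O2 replicate 2 or TIGK control replicate 3. BARX1, a homeobox gene of the jaw and tooth field, was 0 in all HaCaT libraries and 1437, 1208 and 1248 in TIGK after H2O2, at least 397-fold higher. PITX1, which is also used in the limb, was 1517, 2049.8 and 1675 in HaCaT and 4159, 4361 and 4123 in TIGK (line difference -1.27, SE 0.080, adjusted p = 5.8e-11). The highest member was TBX3 (1.06, SE 0.14, adjusted p = 1.4e-06). HOXC12, HOXD10 and PITX1 were chosen after their values were seen.

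**Figure D3:**
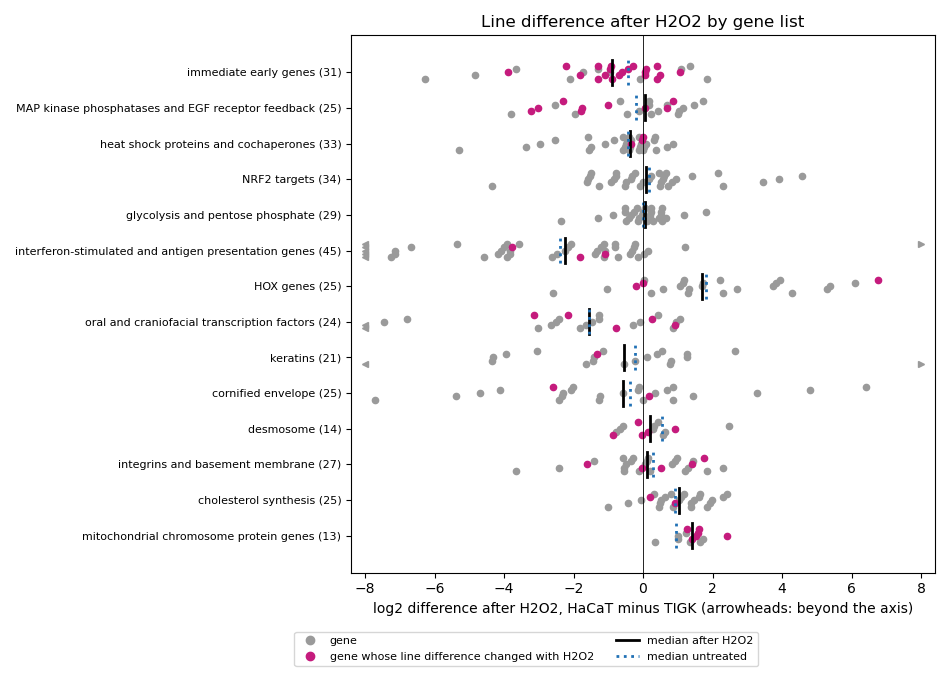
The x axis gives the line difference after H2O2 (log2, HaCaT minus TIGK) of each tested member of 14 gene lists, with the number tested in brackets. Pink points are members whose line difference changed with H2O2, the black bar is the median of the list after H2O2 and the dotted blue bar the median untreated. Arrowheads stand for members beyond 8 on the axis. The 2 medians stand apart for the immediate early genes (-0.88 and -0.43) and nearly coincide for the oral factors.

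Interferon-stimulated and antigen presentation genes were higher in TIGK in both states. All 45 on the list were tested, 2 were higher in HaCaT and 37 in TIGK after H2O2, with 2 and 37 untreated, and the median was -2.24 after H2O2 and -2.38 untreated. Of all genes, 28.5% were higher in HaCaT and 32.3% in TIGK after H2O2. The change passed for 3 of the 45, all toward TIGK (6.67%, beside 3.48% of all genes). B2M, the light chain of HLA class I, was 10242, 10866 and 13729.9 in HaCaT and 20214, 20929.5 and 19342 in TIGK after H2O2 (-0.80, SE 0.090, adjusted p = 2.4e-07). The widened members were 3, DDX58, the RNA sensor RIG-I, from -3.07 to -3.77 (change -0.70, SE 0.12, adjusted p = 0.0008), SAMD9 from -0.74 to -1.83 (change -1.09, SE 0.13, adjusted p = 2.2e-05) and STAT2 from -0.56 to -1.10, the last of which kept its class in only 3 of the 12 fits without 1 library. IFITM2 went the other way, with 898, 1004 and 945 in HaCaT and 1.17, 0 and 0 in TIGK, but shares near-identical sequence with IFITM1 and IFITM3, so that its split from them is uncertain. B2M was chosen after its values were seen.

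The epithelial genes of the 2 lines differed by member. Of 21 keratins tested, 6 were higher in HaCaT and 12 in TIGK after H2O2 (median -0.55). The shares over all genes, to set beside this list and the cornified envelope list, were 28.5% and 32.3%. KRT7, a keratin of simple epithelia, was 13534, 16135 and 16019 in HaCaT and 4.69, 23.0 and 12.7 in TIGK (10.08, SE 0.30, adjusted p = 7.8e-16), and KRT1, a keratin of the upper epidermis, was 22970.1, 19102 and 17377 and 2888, 3208 and 3477 (2.63, SE 0.12, adjusted p = 8.6e-13). KRT13 and KRT19, keratins of oral mucosa, were 640.1, 799 and 637 and 2809, 3493 and 3362 in HaCaT and 13572, 14162 and 14609 and 62454, 65308 and 64618 in TIGK. KRT75 was 0 in HaCaT after H2O2 and 390.3, 412 and 371 in TIGK, at least 119.7-fold higher. Of 25 cornified envelope genes 8 were higher in HaCaT and 12 in TIGK (median -0.57), from FLG, filaggrin, at 6.42 (SE 0.22, adjusted p = 6.6e-15) to S100A7, which was 0 in HaCaT and 22.3, 25.9 and 30.2 in TIGK. IVL, involucrin, widened from -1.54 to -2.60 (change -1.06, SE 0.13, adjusted p = 2.6e-05), HaCaT falling to 479.8, 499 and 498 beside 2599, 3034 and 3313. KRT1, KRT13 and KRT19 were chosen after their values were seen.

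Several desmosome genes moved toward TIGK with H2O2. All 14 genes of cell adhesion on the list were tested, and 10 were higher in HaCaT and 4 in TIGK untreated but 7 and 4 after H2O2. The median fell from 0.54 to 0.21, and the change passed for 5, all toward TIGK (35.7%, beside 3.48% of all genes). It passed for 3 when HaCaT control replicate 1, TIGK control replicate 1 or 2, or replicate 2 or 3 of treated TIGK was left out. PKP1, a plaque protein, was 37077, 35706 and 32472 in HaCaT and 26392, 25906 and 27858 in TIGK untreated and 25489.5, 24788 and 22339 and 26478, 26827 and 27271 after H2O2 (change -0.54, SE 0.085, adjusted p = 0.00033). The treated libraries of PKP1 did not overlap, TIGK being higher, but that difference did not pass the limit. DSG3, a desmosomal cadherin, went from 0.75 to 0.13 (change -0.62, SE 0.077, adjusted p = 3.2e-05), and narrowed instead without HaCaT H2O2 replicate 3 (adjusted p after H2O2 = 0.0083) and with the filter over all 12 libraries. DSP, desmoplakin, went from 0.51 to -0.019 (change -0.53, SE 0.11, adjusted p = 0.0029), and missed the limit in 5 of the 12 fits without 1 library, with an adjusted p up to 0.013. DSG1, another desmosomal cadherin, narrowed from 1.55 to 0.91 (change -0.64, SE 0.14, adjusted p = 0.0053) and missed the limit in 8 of the 12. DSC2, already higher in TIGK, widened from -0.33 to -0.86 (change -0.53, SE 0.091, adjusted p = 0.00076). The highest difference was that of DSC1 (2.46, SE 0.22, adjusted p = 8.8e-09). Of 27 integrin and basement membrane genes, 13 were higher in HaCaT and 10 in TIGK after H2O2 and 5 changed, all toward TIGK (18.5%, beside 3.48% of all genes). Without HaCaT H2O2 replicate 2, HaCaT control replicate 1 or TIGK H2O2 replicate 3 the change passed for 3. ITGA2, a collagen receptor subunit, narrowed from 2.31 to 1.74 and LAMA3, a laminin chain, from 1.82 to 1.41. COL7A1 and ITGA5 missed the limit in 4 and 11 of the 12 fits without 1 library. ITGB5 was highest (2.29, SE 0.062, adjusted p = 2.5e-16) and NID1 lowest (-3.67, SE 0.070, adjusted p = 3.1e-18).

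Most genes of cholesterol synthesis were higher in HaCaT. Of 25 genes 22 were higher in HaCaT and 2 in TIGK, after H2O2 and untreated alike, with medians of 1.02 and 0.92. Of all genes, 28.5% were higher in HaCaT and 32.3% in TIGK after H2O2. HMGCS1, the enzyme before HMG-CoA reductase, was 30884, 30962 and 33676 in HaCaT and 6176, 6116 and 5782 in TIGK after H2O2 (2.40, SE 0.060, adjusted p = 8.5e-17), and PMVK was lowest (-1.01, SE 0.087, adjusted p = 4.8e-09). STARD4, a sterol carrier, narrowed from 1.58 to 0.92 (change -0.66, SE 0.083, adjusted p = 3.8e-05).

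The protein genes of the mitochondrial chromosome were all higher in HaCaT, and for 6 of the 13 the difference widened with H2O2. All 13 were called in both states, where 28.5% of all genes were higher in HaCaT after H2O2 and 30.2% untreated. Their median was 1.42 after H2O2 and 0.95 untreated. The change passed for 6, all toward HaCaT (46.2%, beside 2.02% of all genes). The response to H2O2 was called downward for 11 of them in HaCaT and 13 in TIGK (17.1% and 12.4% of all genes). MT-ND5, a subunit of complex I, fell to 30927, 29709 and 29355 in HaCaT and 6308, 5566 and 5145 in TIGK, from 87205, 84842 and 87514 and 54757, 53189.9 and 60719.7, and its line difference went from 0.62 (SE 0.066, adjusted p = 9.9e-08) to 2.40 (SE 0.070, adjusted p = 7e-16) (change 1.78, SE 0.094, adjusted p = 1.3e-09). MT-CO1, a subunit of cytochrome oxidase, widened from 0.54 to 1.42 (change 0.88, SE 0.080, adjusted p = 9e-07), and MT-ND6, coded on the other strand next to MT-ND5, from 0.53 to 1.26 (change 0.73, SE 0.10, adjusted p = 0.00012). Unless strand was counted, reads from the other strand cannot be told apart from those of MT-ND6. MT-ATP6, MT-ND4L and MT-CYB changed by 0.67, 0.62 and 0.48. MT-ND1 had the lowest difference, 0.36 (SE 0.063, adjusted p = 5.9e-05). These genes carry a share of counts that itself differed between the groups, as given above, and leaving them out of the library totals gave 169, 184, 63, 192 and 244 genes that appeared, vanished, reversed, widened and narrowed.

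**Figure D4:**
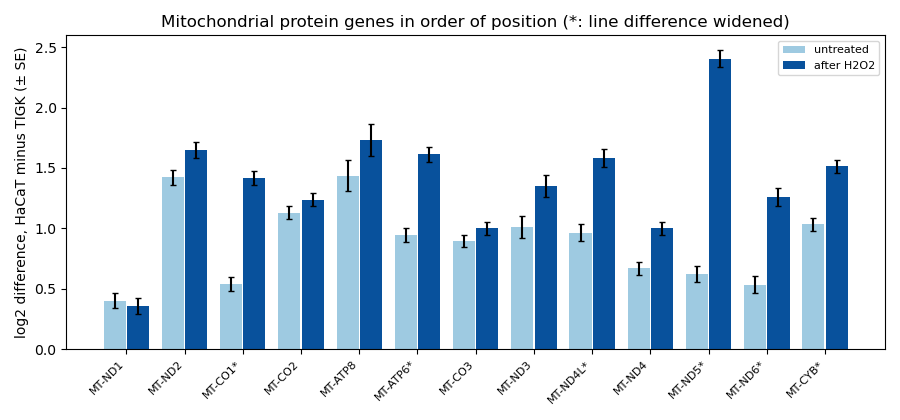
Bars give the line difference (log2, HaCaT minus TIGK) of the 13 mitochondrial protein genes in order of their position, untreated in light blue and after H2O2 in dark blue. Error bars are standard errors worked out from the fitted value and its F statistic. An asterisk marks the 6 whose difference widened, and MT-ND5 shows the largest step, from 0.62 to 2.40.

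Cytokines, growth arrest and cell cycle genes changed in part. Of all genes, 28.5% were higher in HaCaT and 32.3% in TIGK after H2O2 (30.2% and 30.7% untreated). The change passed for 2.02% of all genes toward HaCaT and 3.48% toward TIGK. Of 27 cytokines and chemokines tested, 9 were higher in HaCaT and 14 in TIGK after H2O2, against 5 and 15 untreated. The change passed for 3, 2 toward HaCaT and 1 toward TIGK (7.41% and 3.7%), and for 6 without HaCaT H2O2 replicate 3. CXCL8, interleukin 8, narrowed from -2.64 to -1.09 (change 1.55, SE 0.22, adjusted p = 0.00016), HaCaT rising from 222, 220.0 and 231 to 441, 538 and 677 beside 1093, 1274 and 1163 in TIGK. CXCL6 was 36.8, 67.9 and 56.8 in HaCaT and 0 in TIGK after H2O2, and CCL5 was 0 in HaCaT and 32.8, 67.1 and 51.6 in TIGK. Of 29 p53 targets and GADD45 genes, 9 were higher in HaCaT and 15 in TIGK, and 7 changed, 2 toward HaCaT and 5 toward TIGK (6.9% and 17.2%, beside 2.02% and 3.48% of all genes). PMAIP1, the death factor NOXA, vanished from -0.56 to 0.0044 (change 0.57, SE 0.097, adjusted p = 0.00079), PLK3 appeared at -0.65 (change -0.73, SE 0.11, adjusted p = 0.00022), GADD45A widened to -1.49 and CDKN1A, the cell cycle inhibitor p21, narrowed to 0.32. Among 32 genes of DNA replication, 7 were higher in HaCaT and 17 in TIGK. The change passed for 4 toward HaCaT and 1 toward TIGK (12.5% and 3.12%), and for 3 in all without TIGK H2O2 replicate 2. CDKN2A, the inhibitor p16, was lowest (-3.46, SE 0.10, adjusted p = 1.1e-15), and its neighbour CDKN2B reversed from 0.36 to -0.34 (change -0.70, SE 0.10, adjusted p = 0.00013), with CDKN2B-AS1 on the other strand. E2F1 appeared at 0.53 (change 0.65, SE 0.12, adjusted p = 0.0016). Of 30 mitosis genes, 5 were higher in HaCaT and 6 in TIGK after H2O2, against 10 and 11 untreated. The change itself passed for 4 toward HaCaT and 1 toward TIGK (13.3% and 3.33%), 3 that vanished and 2 that widened. It passed for 1 to 3 without any 1 library other than HaCaT H2O2 replicates 1 and 3 and TIGK control replicate 3, so the lower number of calls after H2O2 is not a tested change of the list.

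Line differences were not spread evenly over the genome. The median line difference after H2O2 was lowest on chromosome 4 (-0.72 over 586 genes, 66.0% of them higher in TIGK) and next on chromosome 16 (-0.31 over 759 genes). It was highest on chromosomes 9 (0.48 over 641 genes), 18 (0.31 over 243) and 10 (0.30 over 666). Untreated, the medians of these 5 chromosomes were -0.63, -0.29, 0.47, 0.37 and 0.37. In windows of 20 Mb with at least 20 genes, of which there were 154, the median ran from -1.40 on chromosome 4 (20000001 to 40000000, 42 genes) to 1.33 on chromosome 10 (1 to 20000000, 89 genes, 77.5% of them higher in HaCaT). On chromosome 9 the window from 20000001 to 40000000 stood at -0.74 over 115 genes, against the positive median of the whole chromosome. Medians of the 154 windows in the 2 states had a Pearson r of 0.976, given as a description. The number of copies of each chromosome in these lines was not measured here, and its part in these medians was not tested.

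**Figure D5:**
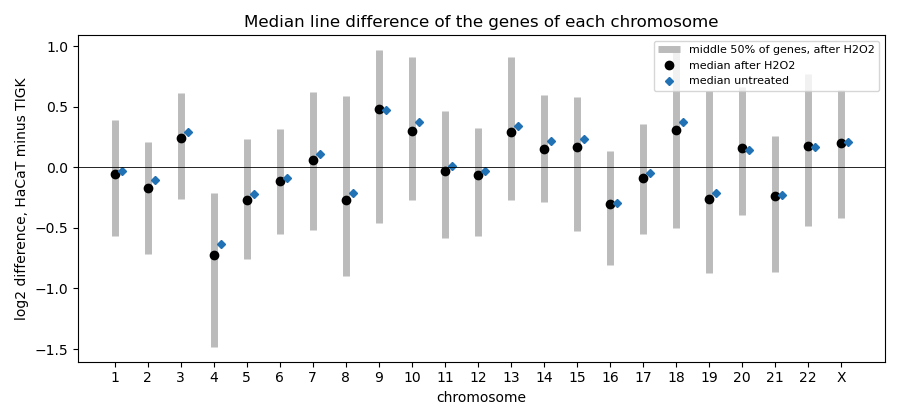
For each chromosome, black points give the median line difference (log2, HaCaT minus TIGK) of its tested genes after H2O2, grey bars the middle 50% of genes, and blue diamonds the median untreated. Chromosome 4 lies lowest at -0.72 and chromosome 9 highest at 0.48, and the 2 states stay close on every chromosome.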

How the data were processed

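Polyadenylated RNA of 12 samples was sequenced, 3 per group. The deposited file was a table of raw counts per gene made by the authors, whole numbers summing to 30426401 to 49034244 per library. Per the study's methods, reads were aligned to GRCh38 with HISAT2 2.0.5 and counted per gene with featureCounts 1.5.0-p3. The submitters' processing notes also named HISAT2 2.0.0, StringTie 1.3.3b and DESeq2, and whether counting used strand is not given in the sources used here. The labels named more than 1 sequencing provider, and the last digit of the formula of the agent ran upward over replicates, while the treatment protocol named H2O2 for all. Tables of the authors' own fold changes and p-values were not used. No column was without a sample (0), no count was without a gene (0), and 27 gene names that had been turned into dates were restored from the gene identifiers.

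Genes whose raw counts averaged 10 or more over the 6 H2O2 libraries were fitted with edgeR 4.0.16 in R 4.3.3 (TMM factors, quasi-likelihood test, 1 mean for each of the 4 groups, all 12 libraries, no covariate), p-values adjusted by Benjamini-Hochberg over every gene tested and a limit of 0.01. Normalized counts are counts scaled to the mean effective library size. The interaction contrast gave the change of the line difference. A difference appeared, vanished, reversed, widened or narrowed according to its calls in the 2 states, and only where the change also passed. The members and lists were chosen with earlier results of these data known. Genes that reached 100 normalized counts in their highest group were named if they had 1 of the 6 largest line differences after H2O2 without overlap in a direction, 1 of the 6 largest changes among those that appeared, vanished or reversed or 1 of the 4 largest among those that widened or narrowed, or if they were list members in a class, list extremes or cell type markers. Others are said to be chosen after their values were seen. The floor of 3 counts gives 3.27 normalized counts in HaCaT and 2.92 in TIGK after H2O2, and covers counting error only. The steps were tested on simulated data.

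Replicates of a group differed by more than sampling noise, the chi-square divided by its degrees of freedom being 4.53 to 29.6 over 12 pairs. The highest values, 29.6 and 19.9, were those of HaCaT H2O2 replicate 3 with replicates 1 and 2 of its group. Next came 15.7 and 12.3, for TIGK control replicate 3 with replicates 1 and 2. Same-numbered libraries of different groups did not deviate together (r from -0.133 to 0.0189 over 18 pairs, 0 over 0.1). DESeq2 1.42.0, other size factors, filters and limits, a replicate block, totals without mitochondrial genes and the fit without each library were tried as alternatives. Genes of the Y chromosome and some list members are not reported here by name.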

Additional observations from a re-analysis of the deposited data

Results flagged for a closer look

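The line difference between HaCaT and TIGK depended on H2O2 for 893 genes, by the test of the change itself (the quasi-likelihood test of edgeR, adjusted by Benjamini-Hochberg). The changes below are log2 values, the line difference after H2O2 minus the untreated one, of the largest genes of each class. No group had more than 3 libraries, so no single library was tested as standing apart.

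Of the differences that appeared, those toward HaCaT changed by 1.66 for GAS1, 1.57 for ID2, 1.47 for FAM45BP, 1.39 for SLC45A3, 1.36 for CBARP and 1.30 for RTN4R. Toward TIGK, those that appeared changed by -3.79 for CTGF, -3.36 for LUCAT1, -2.95 for DUSP5, -2.37 for PRSS22, -1.99 for SEMA7A and -1.51 for EDN1. Of the differences that vanished, those toward HaCaT changed by 3.81 for RASD1, 1.99 for EGR1, 1.92 for RNF222, 1.92 for ATF3, 1.84 for ADPRHL1 and 1.68 for VGF. Toward TIGK, those that vanished changed by -1.60 for PLK2, -1.57 for MAPK15, -1.47 for HOXD9, -1.47 for CGN, -1.45 for BCL10 and -1.37 for IL1RL1. Of the differences that reversed, those toward HaCaT changed by 3.82 for GADD45G, 2.64 for FOS, 2.13 for CXCL1, 1.46 for NRARP, 0.90 for FGFRL1 and 0.83 for JUND. Toward TIGK, those that reversed changed by -3.15 for EGR3, -1.83 for KLF6, -1.81 for ENC1, -1.76 for RNF39, -1.59 for ZC3H12A and -1.58 for ZNF750. Of the differences that widened, those toward HaCaT changed by 2.82 for MARCHF4, 2.61 for UGT8, 2.05 for KRT81 and 1.86 for RPSAP52. Toward TIGK, those that widened changed by -5.99 for ZNF439, -2.70 for ELF3, -2.66 for IL36RN and -2.60 for ARHGAP40. Of the differences that narrowed, those toward HaCaT changed by 3.25 for ARC, 2.93 for LEF1, 2.85 for SNAI1 and 2.80 for TMEM121. Toward TIGK, those that narrowed changed by -2.77 for ARL14, -2.21 for EDAR, -1.87 for SYT14 and -1.71 for HEPHL1. The values of ZNF439, LUCAT1 and other genes at or near 0 counts in a group depend on the small count that the fit adds and set no bound.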

How the results depend on the processing

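No called line difference or change of a named gene turned its sign, but the line with more genes did turn. Changes toward HaCaT, 328 beside 565 toward TIGK, were the more numerous with DESeq2 (721 and 693), with the filter on all 12 libraries (496 and 385) and without HaCaT H2O2 replicate 1 (610 and 525) or 3 (623 and 383), and that filter also gave 5011 and 4954 genes higher in HaCaT and TIGK after H2O2. The median of chromosome 11 went from -0.030 to 0.029 with a mean count of at least 50. Of 156 changes of the line difference named by rule, 104 passed the limit in all alternatives, and of 134 named line differences after H2O2, 126 did. With DESeq2 283, 300, 359 and 390 genes appeared, vanished, widened and narrowed. No filter gave 519 changes toward HaCaT and 321 genes that widened. At an adjusted p under 0.05 there were 782 changes toward HaCaT and 1159 toward TIGK, and the 5 classes held 350, 346, 143, 544 and 558 genes (appear, vanish, reverse, widen, narrow). With a log2 difference of at least 1 there were 1765 and 2672 genes higher in HaCaT and TIGK after H2O2, 1849 and 2572 untreated, 75 and 113 changes, and 48, 42, 3, 37 and 38 genes in the classes. Leaving out 1 library gave 4227 to 4772 and 4829 to 5273 genes after H2O2, 4442 to 4899 and 4621 to 5339 untreated, 194 to 623 changes toward HaCaT and 346 to 612 toward TIGK. The classes then held 109 to 235, 114 to 275, 49 to 74, 122 to 293 and 138 to 263 genes. Same-numbered libraries shared only a number, and the replicate block gave 228 changes toward HaCaT and 391 toward TIGK, with 124, 130, 53, 138 and 174 genes in the classes. A floor of 10 counts, chosen after seeing the data, gave 281 genes in place of 160 and 54 in place of 26. The cause of these shifts was not tested, beyond the fewer genes or stricter limits that some alternatives set. With 3 libraries per group of 30426401 to 49034244 counts, genes near the floor carry the least certain differences, and a difference that missed the limit may be present.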

Other observations

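Feedback genes of TGF-beta and BMP signalling held several changes that the classes above did not name. Of 23 tested, 10 were higher in HaCaT and 11 in TIGK after H2O2 (28.5% and 32.3% of all genes), with a median of -0.067. The change passed for 4 toward HaCaT and 5 toward TIGK (17.4% and 21.7%, beside 2.02% and 3.48% of all genes). The 4 became 2 without HaCaT control replicate 2 or 3, any TIGK H2O2 replicate or TIGK control replicate 1 or 2. They became 7 without HaCaT H2O2 replicate 3, and the 5 stayed 5 in every fit without 1 library. FST, which encodes the activin antagonist follistatin, was 20158, 20017 and 20695 normalized counts in HaCaT and 2126, 2101 and 1821 in TIGK after H2O2, and widened from 2.40 to 3.33 (change 0.93, SE 0.10, adjusted p = 5.4e-06). INHBA, a subunit of activin, was 7965, 7158 and 6731 and 4775, 5164 and 4621 and narrowed from 1.58 to 0.59 (change -0.99, SE 0.096, adjusted p = 1.7e-06). TGIF1, a corepressor of SMAD proteins, widened to -1.42 and TGIF2 narrowed to -0.53.

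Of 26 lineage factors of keratinocytes, 10 were higher in HaCaT and 11 in TIGK after H2O2. All 8 changes ran toward TIGK (30.8%, beside 3.48% of all genes). TP63, the master factor of stratified epithelium, narrowed from 0.88 to 0.45 (change -0.44, SE 0.079, adjusted p = 0.0013), with 12711, 12246 and 11131 in HaCaT and 8716, 8928 and 8822 in TIGK. GRHL3, a factor of barrier formation, widened from -0.93 to -1.74 (change -0.81, SE 0.15, adjusted p = 0.0012), with 316, 307 and 257 in HaCaT and 924, 1044 and 973 in TIGK. The fitted direction of the 8 turned in none of the alternatives tried.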
